A study of Rattus norvegicus with 8 samples.

Results

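The cocoa fiber (CF) diet was compared with the reference (REF) diet in the colon of 8 female Wistar rats, 4 fed each diet, among the 16 rats of the study. Members were taken by the diet that the labels give for each dye of each two-colour array, so that an animal entered as 1 channel of 1 array. The REF chow was a standard purified maintenance formula. The CF chow was built from the same formula with a cocoa fiber powder, which brought insoluble and soluble fiber and only traces of polyphenols. The fiber listed for REF was cellulose. The CF chow held less added cellulose, maltodextrin, casein, soybean oil, minerals and vitamins, and more corn starch and sucrose. By the paper's account, both chows matched in energy, macronutrients and insoluble fiber. The remaining groups received 10 % cocoa (C10), which carried the same cocoa fiber plus polyphenols, or inulin (I), a soluble fiber. Rats were 6 weeks old, and a 5 mm piece of the middle colon was taken from each. No CF rat shared an array with a REF rat: each was hybridized with a C10 or an I rat, and both diets had 2 rats in Cy5 and 2 in Cy3. Rat numbers (REF 1 to 4, CF 1 to 4) are names only and pair no animals.

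Colon bacteria ferment soluble fiber to short-chain fatty acids, which colonocytes take up and oxidize or turn into ketone bodies. The colon epithelium also makes its own cholesterol through the mevalonate pathway, whose enzymes are switched on together when cells sense little sterol. The wall further holds goblet cells that secrete mucus, enteroendocrine cells that release hormones and serotonin, mast cells, lymphoid follicles, nerves and muscle. Each piece was read as a whole, and fewer cells of a type cannot be told apart from less RNA per cell.

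Values are normalized log2 signals, so that a difference of 1 is 2-fold. Log2 fold changes are coefficients of a linear model with diet and dye as terms and the array as a block, and they can differ from the plain difference between group means. For some genes whose groups overlapped, the model and the plain means differed in sign. Those named here included Adipoq, Mcpt1, Lss, Slc16a1, Scnn1a, Cck, Pigr, Vil1, Cdhr5, Pdyn, Cartpt, Penk and Tacr2. The standard error (SE), p and adjusted p over all genes of the log2 fold changes come from limma. The exact permutation test between the groups was two-sided, and with 4 rats in each its smallest possible p is 0.0286.

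Several rats stood apart within their own diet. The signal of Hoxb13, a homeobox gene of the posterior gut, was 13.92, 9.72, 13.98 and 14.36 in CF rats 1 to 4 and 13.14, 12.36, 14.01 and 6.60 in REF rats 1 to 4. CF rat 2 and REF rat 4 were thus low, each far below the rest of its group. Of the other posterior Hox genes tested, Hoxd10 and Hoxd13 were also lowest in these rats within their groups. Hoxa11 went the other way and was highest in them (11.18 in CF rat 2, 11.27 in REF rat 4). Hoxd12 was dim in all rats (6.06 to 6.31). B cell markers, averaged over 5 tested genes of 7, were at 8.13, 6.48, 9.60 and 6.60 in the CF rats and at 7.38, 6.44, 9.20 and 6.63 in the REF rats. Rat 3 of either group was the highest, and the groups overlapped fully. The epithelial markers (6 of 7 tested) ranged from 14.36 to 14.91 in CF and from 14.50 to 15.02 in REF, so epithelium was present in every piece. Smooth muscle markers (4 of 4) ranged from 14.76 to 15.00 and from 14.76 to 15.45, and adipocyte markers (3 of 5) from 7.97 to 9.33 and from 8.12 to 9.57. Red cell markers (Alas2, Hbb and Slc4a1, 3 of 4 tested) were at 9.26 to 10.10 in CF and 8.89 to 9.21 in REF, and here the groups did not overlap. Below, results are also given without CF rat 2 and REF rat 4, a choice made after the Hoxb13 values were seen.

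**Figure D1:**
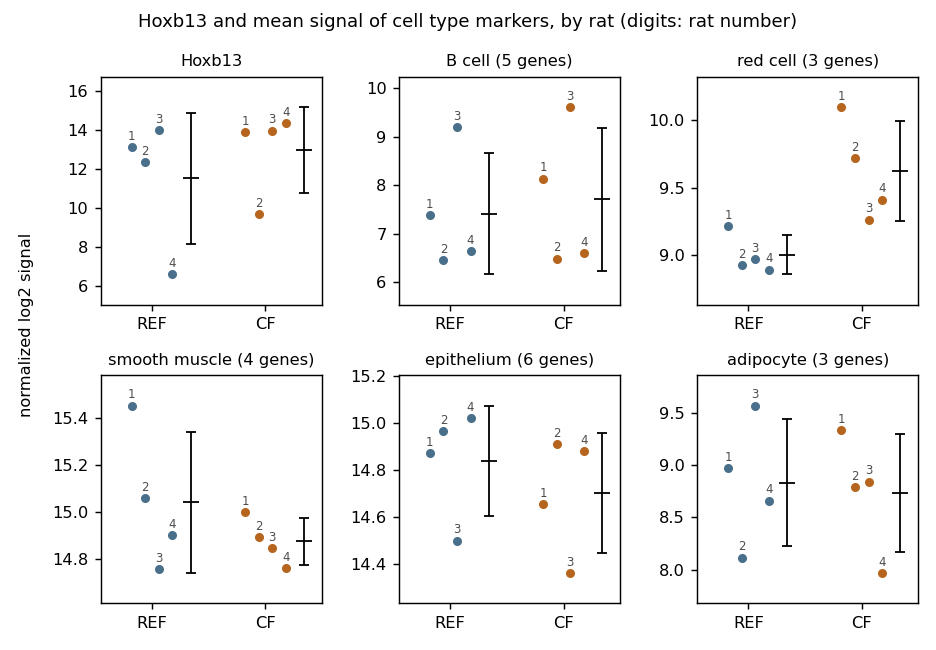
Normalized log2 signal of Hoxb13 and mean signal of the tested markers of 5 cell types in each rat of the REF (blue) and CF (brown) groups, with group mean and SD (n = 4) beside the points. CF rat 2 and REF rat 4 are low in Hoxb13, rat 3 of both groups is high in B cell markers, and the red cell markers of all 4 CF rats lie above those of the REF rats.

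No gene passed the test in the CF group. Of 19899 genes, limma called 0 (0 %) at an adjusted p below 0.05 with a change of at least 2-fold, and the smallest adjusted p was 0.615. An unadjusted p below 0.05 was found for 1271 genes (6.39 %), 632 higher (3.18 %) and 639 lower (3.21 %) in CF; without normalization between arrays, 756 of 1255 such genes were higher. Rank product, the test named in the methods, listed 49 genes with the 2-fold limit, 24 higher and 25 lower. The median log2 fold change was 0.01, 54.8 % of the genes were higher in CF, and 95 % of them lay between -0.32 and 0.33. The median SE was 0.10. For 96.7 % of the genes, the 95 % confidence interval stayed within a 2-fold change in either direction. At least 2-fold differences at any p were seen in 45 genes (0.226 %), 25 higher and 20 lower, and 27 of these have a symbol. The groups did not overlap for 380 genes (1.91 %): all 4 CF rats lay above all 4 REF rats for 226 genes (1.14 %) and below them for 154 genes (0.774 %).

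These counts depended on single rats. The number at an unadjusted p below 0.05 was 612 without REF rat 2, 746 without CF rat 1 and 2281 without CF rat 2. The number at least 2-fold apart was 24 without REF rat 4, 28 without CF rat 3, 73 without REF rat 1, 111 without CF rat 2 and 128 without REF rat 3. Without both CF rat 2 and REF rat 4 these counts were 1718 and 76. Of the 1271 genes, 324 kept an unadjusted p below 0.05 and their direction with each of the 8 rats left out in turn, 158 of them higher and 166 lower in CF. Of the 45 genes, 10 stayed at least 2-fold apart in the same way. A posterior Hox score and a B cell score were also added to the model as covariates. The Hox score averaged Hoxa11, Hoxb13, Hoxd10, Hoxd12 and Hoxd13, which did not all move together, and the B cell score averaged the B cell markers above. With both scores, 11 of the 45 remained at least 2-fold apart.

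**Figure D2:**
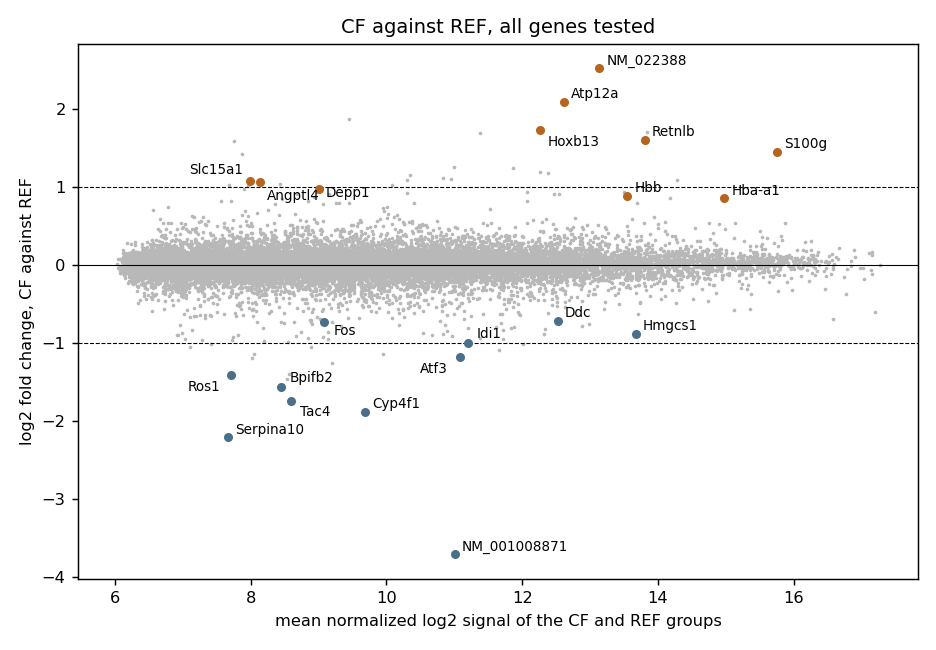
Log2 fold change of CF against REF for each of the 19899 genes (grey points) over the mean log2 signal of both groups, with dashed lines at a 2-fold change. Coloured points mark named genes that were higher (brown) or lower (blue) in CF, from NM_022388 (2.52) to NM_001008871 (-3.71), and 0 of the genes were called.

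Genes were next described by 40 lists of cell types and pathways. Since limma called 0 genes, the counts below refer to the unadjusted p, and they are read against the 3.18 % and 3.21 % of all genes that reached it in either direction. Lists with a median well away from the median of all genes (0.01) were hemoglobin and heme (0.78), the resistin-like family (0.76) and peptide uptake and brush border (0.39) on the higher side. On the lower side stood gastric-type genes (-0.98), striated muscle (-0.38), enteroendocrine genes (-0.36), sterol synthesis (-0.32) and proliferation (-0.31). Single rats moved several of these medians. That of the resistin-like family, with 0 of 4 members at an unadjusted p below 0.05, was 0.31 without REF rat 4, 1.55 without CF rat 2, 0.12 with the Hox and B cell scores and -0.10 within arrays 1 to 4, which hold 2 rats of either diet, as arrays 5 to 8 do. Striated muscle was at -0.21 without REF rat 2, and proliferation at -0.18 without REF rat 2 and -0.06 within arrays 5 to 8. For gastric-type genes the median was -0.66 without REF rat 4 and -1.42 without CF rat 2.

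**Figure D3:**
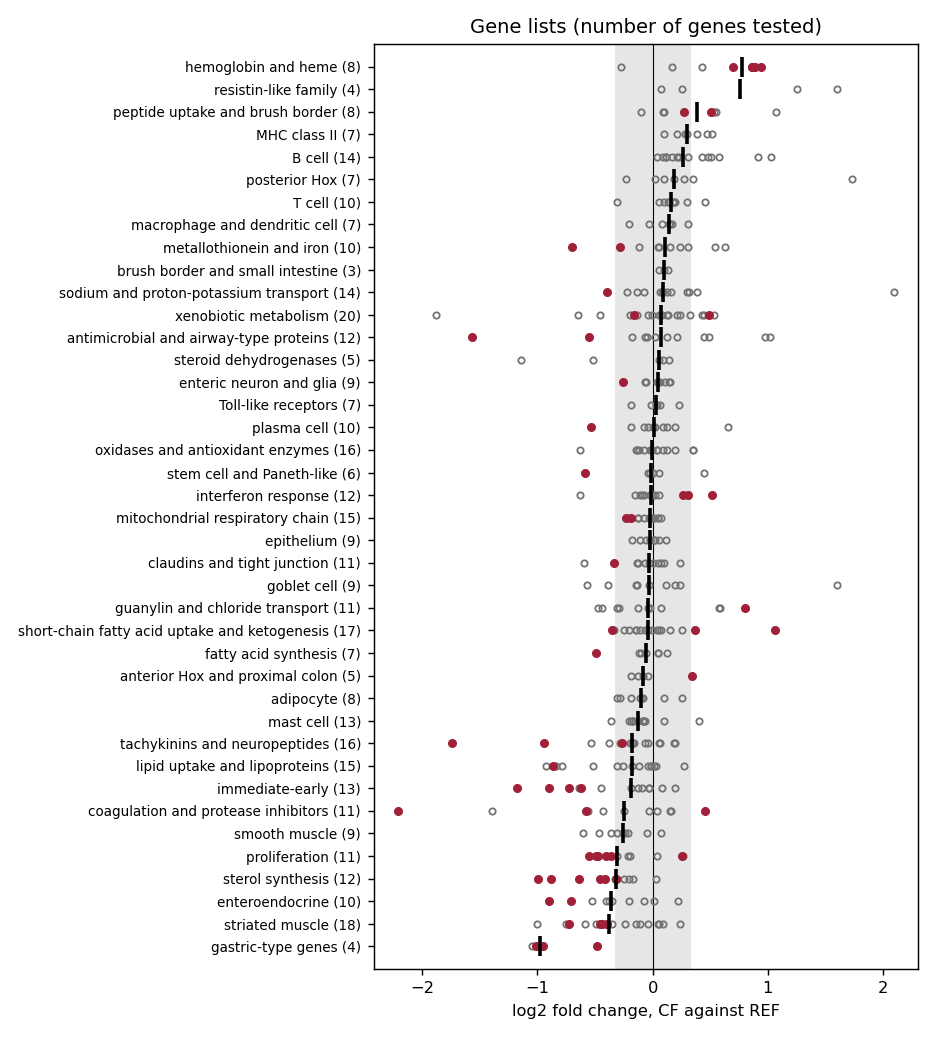
Log2 fold change of CF against REF for the tested members of 40 gene lists, ordered by the list median (black bars). Filled red points have an unadjusted p below 0.05, open points do not, and the grey band holds 95 % of all genes; hemoglobin and heme lies at the top (0.78) and gastric-type genes at the bottom (-0.98).

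Most genes of cholesterol synthesis had lower values in the colon of CF rats. Of 12 genes of the pathway, all tested, 11 were lower, and 6 had an unadjusted p below 0.05, all of them lower. Idi1, the isopentenyl diphosphate isomerase, was at 10.86, 11.19, 10.73 and 10.49 in the CF rats and at 11.86, 12.01, 11.41 and 11.08 in the REF rats. Only CF rat 2 reached into the range of REF, above REF rat 4. Its log2 fold change was -0.999 (SE 0.24, p 0.00109, adjusted p 0.685; exact permutation p = 0.0571). Hmgcs1, which makes the precursor of mevalonate, showed 13.32 ± 0.27 in CF and 14.02 ± 0.52 in REF (SD, n = 4), with REF rat 3 inside the CF range. This gave a log2 fold change of -0.88 (SE 0.26, adjusted p 0.685). Sqle, the squalene epoxidase, was lower by a log2 fold change of -0.64 (SE 0.17, adjusted p 0.685). Fdps, the farnesyl diphosphate synthase, was at -0.45.

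Insig1, Cyp51, Fdft1 and Lss showed values from -0.33 to -0.17 with p of 0.08 or more, and Srebf2, the transcription factor that drives the pathway, was at 0.03 (p 0.74). The list median was -0.32. It ranged from -0.46 to -0.22 with 1 rat left out, was -0.46 without CF rat 2 and REF rat 4, and stood at -0.32 with the Hox and B cell scores. Within arrays 1 to 4 and within arrays 5 to 8 Idi1 was at -0.91 and -0.64. Compared directly, Idi1 was at -0.67 in CF against I (p 0.0104, adjusted p 0.9998) and at 0.18 in CF against C10 (adjusted p 0.777). Neither difference was called.

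Genes of lipid uptake and lipoproteins were more often lower than higher, some by very little, and several varied widely among REF rats. Of 15 tested members (17 listed), 12 were lower, among them Cd36 (-0.04), Dgat1 (-0.02) and Acsl5 (-0.01). An unadjusted p below 0.05 was found for 1 member (6.67 %), near the share of all genes (6.39 %). This was Npc1l1, the intestinal cholesterol transporter, at 6.46, 7.26, 6.33 and 6.11 in CF and 7.22, 8.03, 6.54 and 7.97 in REF. Its log2 fold change was -0.87 (SE 0.30, adjusted p 0.733), and these are dim signals close to the lower limit of the arrays. Apoa4, an apolipoprotein of chylomicrons, was at 7.51, 7.37, 6.77 and 6.79 in the CF rats. The REF rats spread from 6.64 (rat 3) to 9.84 (rat 4), with 8.85 and 8.11 in rats 1 and 2. The log2 fold change of -0.92 (SE 0.59, adjusted p 0.859; exact permutation p = 0.171) had a 95 % interval from -2.18 to 0.34 and was -0.42 without REF rat 4.

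Apoa1, the main HDL protein, was at 10.76, 10.37, 9.63 and 10.81 in CF and 12.05, 11.48, 9.86 and 12.18 in REF. As for Apoa4, REF rat 3 was the lowest and REF rat 4 the highest of the REF rats. The log2 fold change of Apoa1 was -0.84 (SE 0.47, adjusted p 0.827). The fatty acid binding proteins Fabp1 and Fabp2 were at -0.51 and -0.79, with SE of 0.61 for Fabp1. Cd36, Scarb1, Abcg5 and Acsl5, which take up or handle lipids, lay between -0.04 and 0.03. The list median of -0.18 was -0.08 with the Hox and B cell scores, -0.29 without CF rat 2, -0.07 without REF rat 4 and -0.06 without CF rat 4. Within arrays 1 to 4 it was -0.06 and within arrays 5 to 8 -0.31.

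**Figure D4:**
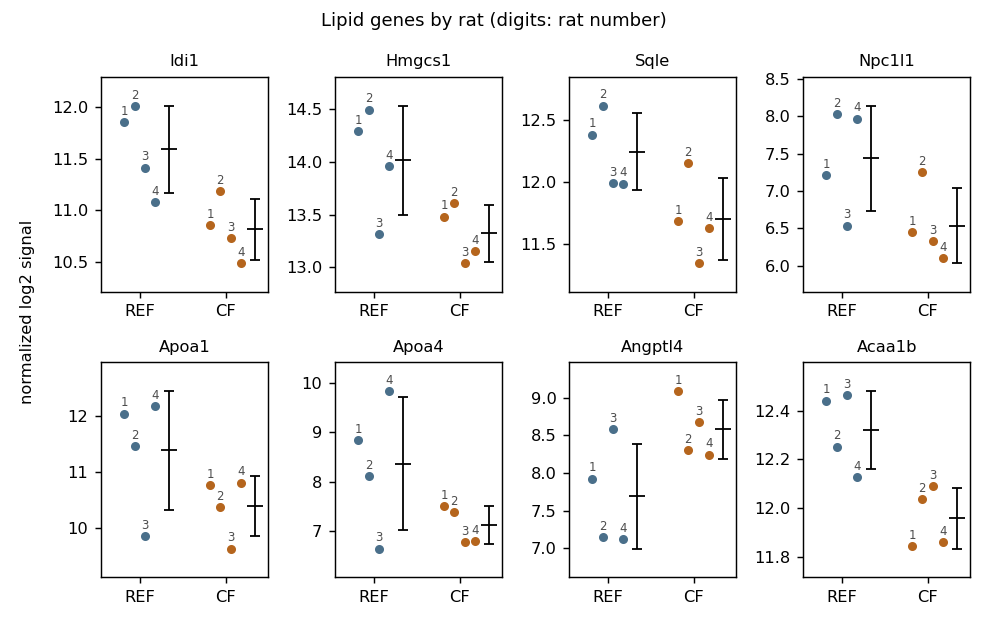
Normalized log2 signal of 8 lipid genes in each REF (blue) and CF (brown) rat, with group mean and SD (n = 4). Idi1, Hmgcs1 and Sqle of the mevalonate pathway lie lower in CF with little overlap, Apoa1 and Apoa4 overlap, with REF rat 3 low, Angptl4 is higher, and Acaa1b separates the groups.

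The smallest p among the named genes was that of Acaa1b. Acadm, Hadh, Acads and Cpt1a, also of fatty acid oxidation, were at -0.11, 0.04, -0.04 and -0.25, with limma p of 0.18 or more. Acaa1b, a thiolase of peroxisomal fatty acid oxidation, was at 11.84, 12.04, 12.09 and 11.86 in CF and 12.44, 12.25, 12.46 and 12.13 in REF, so the groups did not overlap. The difference was small but precise (log2 fold change -0.40, SE 0.074, p 0.000104, adjusted p 0.615), ranging from -0.42 to -0.38 with 1 rat left out, and a second probe gave -0.36. Angptl4, an inhibitor of lipoprotein lipase, was among the higher genes, at 9.09, 8.30, 8.68 and 8.24 in CF and 7.93, 7.15, 8.58 and 7.13 in REF. REF rat 3 alone reached into the CF range. The log2 fold change was 1.06 (SE 0.30, p 0.00364, adjusted p 0.685), and its lowest value with 1 rat left out was 0.77, without CF rat 1.

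Angptl4 stands in the list of short-chain fatty acid uptake and ketogenesis, in which 2 of 17 members were higher and 1 lower at an unadjusted p below 0.05. The others were Slc16a3, a monocarboxylate exporter (0.37, p 0.0276), and Bdh1, the dehydrogenase of the ketone body hydroxybutyrate (-0.36, p 0.0235), whose CF and REF rats did not overlap. The butyrate transporters Slc16a1 and Slc5a8 were at 0.06 and -0.15, and the receptors Ffar2, Ffar3 and Hcar2 at -0.34, -0.0020 and -0.071. The list median was -0.04. Fatty acid synthesis (7 genes) had a median of -0.06, with malic enzyme Me1 at -0.49 (SE 0.19, p 0.0207) and Fasn at 0.12.

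Hemoglobin transcripts had higher values in the CF rats. Of 8 tested members of the hemoglobin and heme list (10 listed), 7 were higher, 5 of them at an unadjusted p below 0.05, and 4 separated all CF rats from all REF rats. Hbb, a beta globin, was at 14.51, 14.18, 13.68 and 13.73 in the CF rats and at 13.24, 12.91, 13.22 and 12.89 in the REF rats. Limma's log2 fold change was 0.89 (SE 0.23, p 0.00157, adjusted p 0.685; exact permutation p = 0.0286). Hba-a1, an alpha globin, reached 15.40 ± 0.56 compared with 14.56 ± 0.19 in REF (SD, n = 4), a log2 fold change of 0.86.

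Hbb-b1 (0.87), Hbb-bs (0.94) and, outside the list, the epsilon-type Hbe2 (0.82) separated the groups too. Globin genes have near-identical copies and probes may read several of them, so these values are not independent. Alas2, the heme synthesis enzyme of red cell precursors, was at 0.69 (p 0.00425), Hba-a3 at 0.42, and Slc4a1, the anion exchanger of the red cell membrane, at 0.17. Ahsp, which stabilizes alpha globin, was at -0.28. The list median was 0.78 with all rats, from 0.53 to 0.93 with 1 rat left out, and 0.69 without CF rat 2 and REF rat 4. CF rat 1 had the highest signal of Hbb, Hba-a1 and Hbb-bs. In the same fit, Hbb was 0.68 in C10 and 0.65 in I against the same 4 REF rats. The amount of blood in the pieces was not measured, and its part in these values was not tested.

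Immediate-early genes, which cells switch on within minutes of a stimulus, were lower or near 0. Of 13 tested members, 11 were lower and 4 had an unadjusted p below 0.05, all lower. Fos was at 8.50, 8.55, 8.41 and 9.27 in CF and 9.12, 9.76, 9.37 and 9.71 in REF; only CF rat 4 reached the range of REF. The log2 fold change was -0.73 (SE 0.16, p 0.000599, adjusted p 0.685), and it was between -0.90 and -0.62 with 1 rat left out. Atf3, a stress-induced transcription factor, was at 10.06, 9.69, 10.42 and 11.75 in CF and between 11.45 and 11.87 in the REF rats. CF rat 4 again stood with the REF rats, and the log2 fold change was -1.18 (SE 0.38, adjusted p 0.685). Within arrays 1 to 4 it was -1.99 and within arrays 5 to 8 -0.43.

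Rgs1 (-0.90) and Rgs2 (-0.62), regulators of G protein signalling, were lower as well, and for Rgs2 the groups did not overlap. Jun (0.20), Junb (-0.03), Egr1 (-0.19) and Dusp1 (-0.12) had p of 0.332 or more. The list median of -0.19 was -0.40 without CF rat 2 and REF rat 4, -0.42 without REF rat 4, -0.10 without REF rat 3 and -0.13 without CF rat 2. It was -0.33 within arrays 1 to 4 and -0.08 within arrays 5 to 8.

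Among 11 tested genes of cell proliferation, 8 were lower, 5 of them at an unadjusted p below 0.05, and 1 was higher at that level. Those lower were Birc5 (-0.55), Ccna2 (-0.49), Ccnb1 (-0.47), Rrm2 (-0.41) and Cdk1 (-0.36), which act in DNA synthesis and mitosis. Ccnb1, the mitotic cyclin, was at 9.53, 9.57, 9.57 and 9.46 in CF and 9.88, 10.05, 9.83 and 9.67 in REF, without overlap (SE 0.15, adjusted p 0.685). Mcm2, of the replicative helicase, was higher (0.25, p 0.0219) and Pcna was at 0.04. The stem cell marker Lgr5 was dim, well above background in 2 of 4 rats of each group, and was at -0.04.

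Of 10 tested enteroendocrine genes (13 listed), 8 had lower values in CF, and 2, Ddc and Slc18a1, reached an unadjusted p below 0.05. Ddc, the decarboxylase that makes serotonin and dopamine, was at 12.46, 12.42, 11.96 and 12.02 in CF and 12.89, 13.03, 12.64 and 12.78 in REF, so every CF rat lay below every REF rat. Its log2 fold change was -0.71 (SE 0.14, p 0.000161, adjusted p 0.615), between -0.81 and -0.61 with 1 rat left out, and a second probe gave -0.56. Compared directly with I, Ddc was at -0.60 in CF (p 0.000369, adjusted p 0.9998), a difference that limma did not call.

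Slc18a1, which loads amines into vesicles, was at -0.90 (SE 0.41, p 0.0477) and Tph1, the first enzyme of serotonin synthesis, at -0.53 (SE 0.39). Both were highest in CF rat 2 among the CF rats and in REF rat 4 among the REF rats. The hormone genes Gcg, Pyy, Cck and Sst lay between -0.35 and 0.22 with p of 0.288 or more. The list median of -0.36 was -0.13 without REF rat 4, -0.66 without CF rat 2, -0.10 within arrays 1 to 4 and -0.07 with the Hox and B cell scores, under which Ddc was at -0.64 (p 0.000717).

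Of 16 tachykinin and neuropeptide genes, 12 were lower and 3 had an unadjusted p below 0.05. Of those 12, Pdyn, Cartpt, Penk and Tacr2 were higher in CF by plain group means. The list median of -0.18 was 0.02 within arrays 1 to 4 and -0.05 within arrays 5 to 8. Tac4, a tachykinin of immune cells, was at 7.11, 9.52, 7.04 and 7.17 in CF and 9.24, 10.36, 7.89 and 10.41 in REF. CF rats 1, 3 and 4 lay below all REF rats, whereas CF rat 2 lay among them. Limma's log2 fold change was -1.74 (SE 0.60, p 0.0113, adjusted p 0.733; exact permutation p = 0.0857), -2.20 without CF rat 2 and REF rat 4, and -1.14 with the Hox and B cell scores. Npw, neuropeptide W, was at -0.94 and the receptor Tacr1 at -0.27, while Tac1, which encodes substance P, was at -0.38 (p 0.405).

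Serpina10, the inhibitor of clotting factor X that depends on protein Z, showed the lowest log2 fold change of any gene with a symbol. Its signal was 6.47, 7.57, 6.05 and 6.73 in CF and 7.85, 10.45, 7.45 and 8.78 in REF. Only 3 of 4 CF rats were well above background, compared with 4 of 4 REF rats. CF rat 2 was just above REF rat 3, and REF rat 2 was far above all others. The log2 fold change was -2.21 (SE 0.88, p 0.0251, adjusted p 0.776; exact permutation p = 0.0571), with a 95 % interval from -4.09 to -0.32. Without REF rat 2 it was -1.38. Of the 11 tested genes of coagulation and protease inhibition, F3, tissue factor, was also lower (-0.58, SE 0.18, p 0.00552), with 9.82, 10.02, 9.81 and 10.20 in CF and 10.53, 10.75, 10.50 and 10.29 in REF, without overlap. Serpinc1, antithrombin, was higher (0.46, p 0.0285), although only 1 of 4 REF rats was well above background. Pzp, a broad protease inhibitor, was at -1.39 (SE 0.84, p 0.122).

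Other large differences on the lower side were those of NM_001008871, Cyp4f1, Bpifb2 and Ros1. NM_001008871, an mRNA without a symbol here, was at 9.22, 12.31, 7.31 and 8.51 in CF and 12.30, 13.60, 11.30 and 13.49 in REF. CF rat 2 lay within the REF range, and the log2 fold change of -3.71 (SE 1.14, adjusted p 0.685) had a 95 % interval from -6.14 to -1.27. Ros1, a receptor tyrosine kinase, was at 6.95 ± 0.73 in CF and 8.48 ± 0.94 in REF (SD, n = 4), a log2 fold change of -1.40 (SE 0.44, adjusted p 0.685). Cyp4f1, a fatty acid hydroxylase, was at -1.88 with an SE of 1.22, and at -0.62 with the Hox and B cell scores. Bpifb2, a secreted protein of the lipid-binding BPI fold family, was at -1.56 (SE 0.62) and at -0.94 with the scores.

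The 4 tested gastric-type genes of 8 were all lower, 3 of them at an unadjusted p below 0.05. They were the trefoil peptides Tff1 (-0.95) and Tff2 (-0.48), the pepsinogen gene Pga5 (-1.01) and gastrokine Gkn2 (-1.05, p 0.107). These were dim or moderate signals, and for Gkn2 and Tff2 only 1 of 4 CF rats was well above background. CF rat 2 was the highest CF rat in each of them. The list median was -0.98, and it was -0.46 with the Hox and B cell scores.

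Of 8 tested genes of peptide uptake and the brush border (10 listed), 7 had higher values in CF and 2 of these had an unadjusted p below 0.05. Anpep, aminopeptidase N, was at 8.10, 7.86, 8.15 and 8.15 in CF and 7.69, 7.48, 7.83 and 7.58 in REF, so the groups did not overlap. Limma's log2 fold change was 0.51 (SE 0.13, p 0.00164, adjusted p 0.685; exact permutation p = 0.0286), from 0.40 to 0.60 with 1 rat left out. Slc15a1, the peptide transporter PepT1, was at 8.89, 7.51, 8.37 and 9.41 in CF and 7.74, 7.28, 7.90 and 6.86 in REF, a log2 fold change of 1.07 (SE 0.55, p 0.0729, adjusted p 0.804). Its other 2 probes gave 0.28 and 0.33. Dpp4 (0.55) and Mme (0.54) had p of 0.0601 and 0.0948, Alpi and Lct were both at 0.09, and Enpep was at -0.10. The list median was 0.39, 0.26 with the scores and 0.13 within arrays 1 to 4. A further list, of brush border structure, held Vil1 (0.05), Ezr (0.13) and Cdhr5 (0.10), none at an unadjusted p below 0.05, and its median of 0.10 was -0.02 within arrays 1 to 4 and -0.14 within arrays 5 to 8.

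Of 14 tested genes of sodium and proton-potassium transport, 0 were higher and 1 was lower at an unadjusted p below 0.05. This was Fxyd3, a regulator of the sodium pump, at -0.39 (SE 0.18, p 0.0428, adjusted p 0.778), with -0.50 in a second probe and overlapping groups. Atp12a, the colonic proton-potassium pump, had the highest log2 fold change with a symbol (2.09, SE 1.57, p 0.203, adjusted p 0.889). It was at 15.10, 9.31, 14.04 and 14.97 in CF and 13.62, 12.08, 13.27 and 8.50 in REF, low in the rats that were low in Hoxb13. With the Hox and B cell scores it was at 0.36. NM_022388 followed the same rats (15.54, 11.64, 14.88 and 15.21 compared with 12.89, 12.37, 13.82 and 8.74). It was at 2.52 (SE 1.08, p 0.0355), and at 1.28 with the scores. S100g, a vitamin D-dependent calcium-binding protein, was at 16.61, 14.69, 16.70 and 16.85 in CF and 15.86, 14.66, 15.11 and 15.54 in REF, a log2 fold change of 1.46 (SE 0.72, adjusted p 0.795). The subunits of the epithelial sodium channel were at 0.12 (Scnn1a), 0.31 (Scnn1b) and 0.39 (Scnn1g, SE 0.59). For Scnn1g, the CF signals (6.79 to 7.59) lay above all REF signals (6.44 to 6.62), but only 2 of 4 REF rats were well above background. Guca2b, uroguanylin, was at 0.80 (SE 0.34, p 0.0322) and its paralog Guca2a at -0.31.

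The remaining genes at least 2-fold higher with an unadjusted p below 0.05 were Aqp8, a water channel of the colon (1.16, SE 0.44), and Akr1c15, an aldo-keto reductase (1.25, SE 0.51), both named after their values were seen. Together with Angptl4 and NM_022388 they made up all 4 such genes, compared with 9 on the lower side.

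Of 9 tested goblet cell genes, 0 had an unadjusted p below 0.05, and the median of -0.03 was 0.41 without CF rat 2 and -0.12 without REF rat 4. Retnlb, the resistin-like product of goblet cells, was at 15.55, 10.88, 15.99 and 14.56 in CF and 14.15, 13.66, 14.67 and 11.01 in REF. The group means were 14.24 ± 2.32 and 13.37 ± 1.63 (SD, n = 4 each), closer together than the log2 fold change of the model, which was 1.60 (SE 1.20, adjusted p 0.889; exact permutation p = 0.543). It was 3.04 without CF rat 2, 0.46 without REF rat 4 and 0.31 with the scores. Its relative Retnla was at 1.26 (SE 0.97). Both were lowest in CF rat 2 and in REF rat 4. The mucus proteins Fcgbp, Clca1, Zg16 and Tff3 lay between -0.13 and 0.24, and Agr2 and Spdef, which act in mucin folding and goblet cell differentiation, at -0.57 and -0.39.

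**Figure D5:**
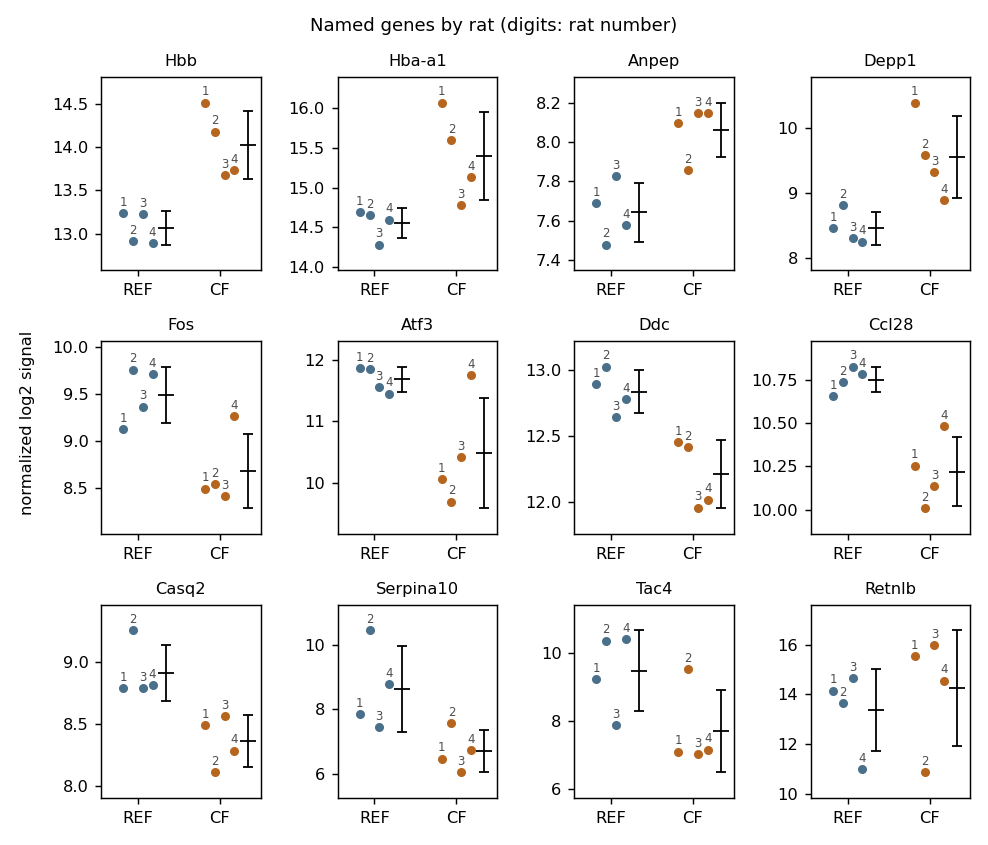
Normalized log2 signal of 12 named genes in each REF (blue) and CF (brown) rat, with group mean and SD (n = 4). Hbb, Hba-a1, Anpep and Depp1 lie higher and Ddc, Ccl28 and Casq2 lower in all CF rats, whereas Fos, Atf3, Serpina10 and Tac4 each have CF rats within the REF range and Retnlb overlaps fully.

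Of 18 tested striated muscle genes (20 listed), 14 were lower and 4 had an unadjusted p below 0.05: Casq2 (-0.72), Myom2 (-0.46), Myl2 (-0.44) and Casq1 (-0.40; second probe -0.09). Pln, phospholamban, was at -1.01 (SE 0.53, p 0.0803). Casq2, a calcium store protein, separated the groups. The skeletal muscle actin Acta1 was at -0.04 and the cardiac actin Actc1 at 0.09. All 9 smooth muscle genes had p of 0.202 or more, with a median of -0.26 and from -0.52 to -0.11 with 1 rat left out.

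Mast cell genes showed no clear difference between CF and REF. Of 13 tested members, 0 had an unadjusted p below 0.05, and their log2 fold changes lay between -0.36 (Mcpt10) and 0.41 (Mcpt4). The 95 % interval of Mcpt4, from -0.31 to 1.12, reached beyond a 2-fold rise. Hdc, histidine decarboxylase, was the member whose groups did not overlap, at 8.12 to 8.30 in CF and 8.34 to 8.54 in REF (-0.17, SE 0.083, p 0.0653, adjusted p 0.800). Mcpt1, a mucosal mast cell protease, was at 11.72, 11.94, 12.30 and 11.43 in CF and 12.42, 11.64, 12.30 and 12.17 in REF. The model gave 0.10 (SE 0.35, 95 % interval -0.65 to 0.85), although the plain CF mean (11.85) was below that of REF (12.14). Fcer1a, the alpha chain of the IgE receptor, was at -0.13 (SE 0.12, 95 % interval -0.39 to 0.13). Against the C10 rats, CF was higher in Mcpt1 by 2.59 (adjusted p 0.0072), in Mcpt4 by 1.80 (adjusted p 0.0258), in Fcer1a by 0.68 (adjusted p 0.0238) and in Hdc by 0.92 (adjusted p 0.000217).

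Ccl28, the mucosal chemokine that attracts IgA-secreting cells, was lower in all CF rats, at 10.25, 10.01, 10.14 and 10.48 compared with 10.66, 10.73, 10.83 and 10.78 in REF. The log2 fold change was -0.54 (SE 0.11, p 0.000244, adjusted p 0.685), from -0.63 to -0.46 with 1 rat left out. CF was also below C10 (-0.63, adjusted p 0.0238), while the difference from I was -0.07 (p 0.530). Other genes of the plasma cell list (10 tested) lay between -0.19 and 0.65, and Pigr, which carries IgA across the epithelium, was at 0.02.

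All 14 tested B cell genes and all 7 MHC class II genes were higher in CF (medians 0.27 and 0.30), but 0 of them had an unadjusted p below 0.05. Their spread followed rat 3 of either group: Ccl19, a chemokine of lymphoid tissue, was at 12.43, 7.44, 14.49 and 8.22 in CF and 9.75, 7.25, 13.98 and 7.08 in REF. The B cell median was -0.10 without CF rat 3 and 0.65 without REF rat 3, and that of MHC class II 0.13 without REF rat 1 and 0.64 without REF rat 3. T cell genes (10) had a median of 0.16 (-0.11 without CF rat 3, 0.38 without REF rat 3), macrophage and dendritic cell genes (7) of 0.14 and Toll-like receptor genes (7) of 0.03, again with 0 genes at an unadjusted p below 0.05. Of 12 interferon-induced genes, Cxcl10 (0.52), Gbp2 (0.31) and Mx2 (0.26) were higher at that level and the list median was -0.02.

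The medians of several large lists stayed close to 0, although single members did not always. Among 15 nuclear genes of the respiratory chain, the values lay between -0.23 and 0.07 and the median was -0.02; Ndufa4 (-0.23) and Ndufb5 (-0.19) had an unadjusted p below 0.05. Oxidases and antioxidant enzymes (16 genes) had a median of -0.01 and 0 genes at that level, epithelial identity (9 genes) -0.03 and tight junction genes (11 genes) -0.03, with Cldn8, a sealing claudin of the distal nephron and colon, at -0.33 (SE 0.11, p 0.0068). Xenobiotic metabolism (20 genes) had a median of 0.08, with values from -1.88 to 0.54. Cyp2d4 was higher (0.49, p 0.00903) and Gstp1 lower (-0.16, p 0.0178). Metallothionein and iron genes (10 tested) had a median of 0.10, with values from -0.70 to 0.62. Metallothioneins Mt1 and Mt2A were at 0.54 and 0.62, with p of 0.177 and 0.199, and Mt3 at -0.70 (p 0.0115).

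Outside the lists, other genes separated all CF from all REF rats. The largest on the higher side was Depp1, at 10.39, 9.59, 9.32 and 8.89 in CF and 8.46, 8.82, 8.31 and 8.26 in REF (0.97, SE 0.30, adjusted p 0.685). Zc3h13 was at 0.62 (second probe 0.25), Dpysl4 at 0.62 (p 0.214) and Banp at 0.56. On the lower side were Mettl27 (-0.96, SE 0.30), Wfdc1 (-0.95, SE 0.30), the defensin gene RatNP-3b (-0.90; -0.36 without REF rat 2), and Sstr2, a somatostatin receptor (-0.60). Tnfrsf11b, osteoprotegerin, was at -0.59.

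Small, precise differences were those of Cdc42ep3 (-0.38, SE 0.076, p 0.000185) and Sipa1l1 (0.31, SE 0.066, p 0.000325), both separated in all rats, at an adjusted p of 0.615 and 0.685. Their values with 1 rat left out ran from -0.41 to -0.35 and from 0.27 to 0.37.

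Among the genes that the study names, 18 were taken from its text, and 15 of these were tested under a symbol. No tested gene carried the symbol Fxyd4, Hba-a2 or Mcpt2. Whether genes kept under the file's identifier include them was not checked. Those not yet described were Adipoq, the adipocyte hormone adiponectin, at -0.19 (SE 0.69, 95 % interval -1.66 to 1.29), and Scgb1a1, a secretoglobin, at 0.97 (SE 0.75, adjusted p 0.891). The study named these genes from the same samples, and 0 of the 15 passed limma's adjusted threshold. It also measured some of them by real-time PCR in larger groups of rats, which are not part of these data. There it reported significantly lower Serpina10 with the CF diet.

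C10 and I share the 4 REF rats as their reference with CF, so likeness between these comparisons is no separate evidence, and values are set side by side for a few genes only. For Atf3 the log2 fold changes were -1.18 in CF, -1.65 in C10 and -1.76 in I, for Serpina10 -2.21, -0.90 and -2.03, and for Fos -0.73, -0.50 and -0.72. For Idi1 they were -0.999, -1.18 and -0.33, and for S100g 1.46, 0.09 and -0.21. When CF was compared with I directly, limma called 0 genes, and S100g differed by 1.67 (p 0.0247, adjusted p 0.9998). A p that misses the threshold does not show that the diets act alike.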

How the data were processed

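RNA of 16 rats was hybridized in pairs to 8 two-colour arrays (SurePrint G3 Rat), and the 8 CF and REF rats are reported. The authors deposited the output of Agilent Feature Extraction 10.7.3.1, without normalization: for either dye, a median intensity per spot and one for the background around it. Processed intensities of the same output served as an alternative. The authors' normalized table was not used, since its columns could not be matched to rats.

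Signals were processed in limma 3.58.1 (R 4.3.3) by the steps that the methods name: normexp (offset 50), spatial loess (span 0.4), intensity loess (span 0.3) and Aquantile. Offset and spans were chosen here. Each array has 62976 spots for 30367 probes, with 0 saturated; 604 to 896 outlier spots per array were left out. In the CF and REF rats, 68.6 to 83.9 % of spots were well above background, with a floor of 5.86 to 6.37 log2 units. Probes well above background in at least 4 of 16 rats were kept (22537), and the brightest stood for a gene: 11921 genes with a current symbol and 7978 under the file's identifier. An mRNA accession was given for 19109 probes and found in the RefSeq gene table for 17935.

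All 16 rats were fitted with diet and dye as terms and the array as a random block (correlation 0.421), with eBayes and Benjamini-Hochberg adjustment. Rank product used 100 permutations. The comparison and the lists were chosen with earlier results of these data known. Genes named were 18 taken from the study's text, the 10 largest rises and falls among non-overlapping genes, the 5 largest of any gene and the 5 smallest p, all with a symbol, at least 2-fold members and the 3 smallest p of each list, and at most 2 genes without a symbol per direction; members of a list were added for context. Some of these genes are not reported here, but they stay in the counts and medians of the lists. Alternatives changed the background correction, normalization, filter, probe choice, dye and array terms, part of the slide, covariates and animals.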

Additional observations from a re-analysis of the deposited data

Results flagged for a closer look

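Single rats far from the other 3 of their diet were looked for in 153 named genes, that is in 306 groups of 4, and 26 were found. With independent, normally spread values, about 1 in 20 such groups would be flagged. These groups share the same rats and the genes were partly chosen by their values, so the 26 cannot be weighed against that rate. Of the 26, 15 were CF rat 2.

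CF rat 2 was the lowest of its group, with a gap to the next rat close to the whole range, in Hoxb13 (9.72; others 13.92 to 14.36), S100g (14.69; 16.61 to 16.85), NM_022388 (11.64; 14.88 to 15.54) and XM_221883 (7.91; 10.77 to 11.35). It was the highest in Tac4 (9.52; 7.04 to 7.17), Bpifb2 (9.52; 6.96 to 7.16), Pzp (10.12; 6.73 to 7.27), Hsd3b5 (8.59; 6.26 to 6.37) and Cldn15 (8.71; 7.35 to 7.51). The same held for the gastric-type genes Gkn2 (8.45), Pga5 (7.77) and Tff1 (8.34), and for Cdx2 (14.17), Olfm4 (6.88) and Casq1 (7.53). Cdx2 was thus high and Hoxb13 low in this animal. REF rat 4, the lowest in Hoxb13 (6.60), had Cdx2 at 13.93, within the REF range of 13.67 to 14.02. Why these animals stood apart was not tested.

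CF rat 3 was the highest in Lck (8.43), Gbp2 (11.10) and RT1-Db1 (14.17), genes of lymphocytes, interferon response and antigen presentation. CF rat 1 was the highest in Banp (11.08) and CF rat 4 in Fos (9.27). In the REF group, rat 3 was the highest in Cxcl13 (10.63), a chemokine of B cell follicles, and in Rgs2 (12.89), and the lowest in Zc3h13 (9.10). REF rat 2 was the highest in Casq2 (9.25) and Tnfrsf11b (9.56), and REF rat 4 the lowest in Tsc22d3 (10.81).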

How the results depend on the processing

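limma called 0 genes with all rats and under each of 24 alternative fits, in which the smallest adjusted p was 0.138, without CF replicate 2. Rank product gave 49 genes with the 2-fold limit and 130 at any fold change. The count at an unadjusted p below 0.05 (1271) was 749 with only the 8 CF and REF rats, 786 without the dye term and 594 within arrays 1 to 4. It was 612 to 2281 with 1 rat left out. The count at least 2-fold apart (45) was 88 without offset, 191 with the processed signals, 69 within arrays 1 to 4, 121 within arrays 5 to 8 and 15 with the Hox and B cell scores. It was 76 without CF rat 2 and REF rat 4, chosen after seeing the data, and 24 to 128 with 1 rat left out. The cause of these shifts was not tested. Of 156 named genes, the 70 with an unadjusted p below 0.05 kept their direction under each alternative fit, as did 123 in all; 12 of 40 list medians kept their sign. No paired analysis was possible because rat numbers only name the animals. Signals near the floor of the arrays understate fold changes.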
